A study of Homo sapiens with 4 samples.

Results

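The ABC transporters are membrane proteins that use ATP to move drugs, lipids, peptides, metals and metabolites across a membrane. The members described here were the protein-coding genes whose symbol is ABC followed by a subfamily letter from A to G and a number. 42 of the 32673 genes listed were members, among 16816 protein-coding genes. 11 belonged to subfamily A, 9 to B, 10 to C, 3 to D, 1 to E, 3 to F and 5 to G. RNA was sequenced from TF1-BA cells, which respond to imatinib, and from TF1-BAR cells, which resist it, with 2 libraries per cell line and 10000000 cells per library. TF1 is a human erythroleukaemia cell line that depends on a growth factor, and both lines derive from it, carry the BCR-ABL fusion kinase and were grown with GM-CSF. The medium of the TF1-BAR cells also held 2 µM imatinib, the inhibitor of BCR-ABL, so resistance and growth with the drug cannot be told apart, and whether it was present at harvest is not stated. Each cell line is a single model, the titles of the TF1-BAR libraries call them vector samples, and nothing states that the 2 libraries of a line came from separate cultures, so the p-values measure only the spread between these libraries.

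In textbook accounts, members of subfamilies A, B, C, D and G span a membrane, while ABCE1 and the ABCF proteins have the ATP-binding parts alone and work at the ribosome. ABCB1 (P-glycoprotein) and ABCG2 pump many drugs out of the cell, and imatinib is a substrate of both. Several ABCC proteins (the multidrug resistance-associated proteins) export drugs and metabolites as conjugates or nucleotides. Other members have housekeeping tasks in mitochondria, peroxisomes and lysosomes.

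The values were FPKM, the number of sequenced fragments scaled to transcript length and to the depth of each library. The libraries held 15465497 to 18042299 fragments, and 98.6% to 98.7% of them lay in the listed genes. All 10 markers fixed for the TF1 line, among them GATA1 and KIT, passed the filter on low values, 4 were higher in the TF1-BAR cells beside 16.3% of all genes tested, and CD34 and KIT were higher by more than 2-fold, as were 3.05% of all genes. Their summed level was 521.9 to 545.5 FPKM in the TF1-BA and 645.8 to 664.9 in the TF1-BAR libraries. Of 9 markers of other cell types, 6 stayed under 0.5 FPKM in every library, and the epithelial keratin KRT8 was higher in the TF1-BAR cells. These 9 markers summed to 34.1 to 35.5 FPKM in the TF1-BA and 37.0 to 40.3 in the TF1-BAR libraries, mostly through the endothelial and haematopoietic marker PECAM1. The part of either marker shift in the results below was not tested, and in bulk RNA fewer cells with a transcript and less of it per cell cannot be told apart.

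The ABC genes fell into a few abundant and many scarce transcripts. The 10 members with a mean of at least 10 FPKM in the TF1-BA cells held 83.3% and 82.6% of the summed FPKM of the family there, and 82.5% and 81.5% in the TF1-BAR libraries. In the TF1-BA cells the order was led by ABCF1 (32.9 ± 0.424 FPKM, SD, n = 2), ABCC4 (27.7 ± 0.0535), ABCC5 (22.4 ± 0.288), ABCE1 (20.6 ± 1.20) and ABCC1 (18.4 ± 0.00375). The libraries of neighbours in this order did not overlap. In the TF1-BAR cells ABCC4 came first (43.1 ± 0.548 FPKM, SD, n = 2), followed by ABCF1 (31.0 ± 1.40), ABCC5 (27.5 ± 0.689), ABCE1 (20.8 ± 2.47) and ABCC1 (18.7 ± 0.989), where the libraries of ABCE1 and ABCC1 overlapped. ABCB1 moved from rank 17 to rank 14, and its libraries overlapped with those of ABCD4 at that rank. In 15 members all 4 libraries had under 10 fragments, and 6 of them had at most 3, but none was at 0 in all 4 libraries.

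**Figure D1:**
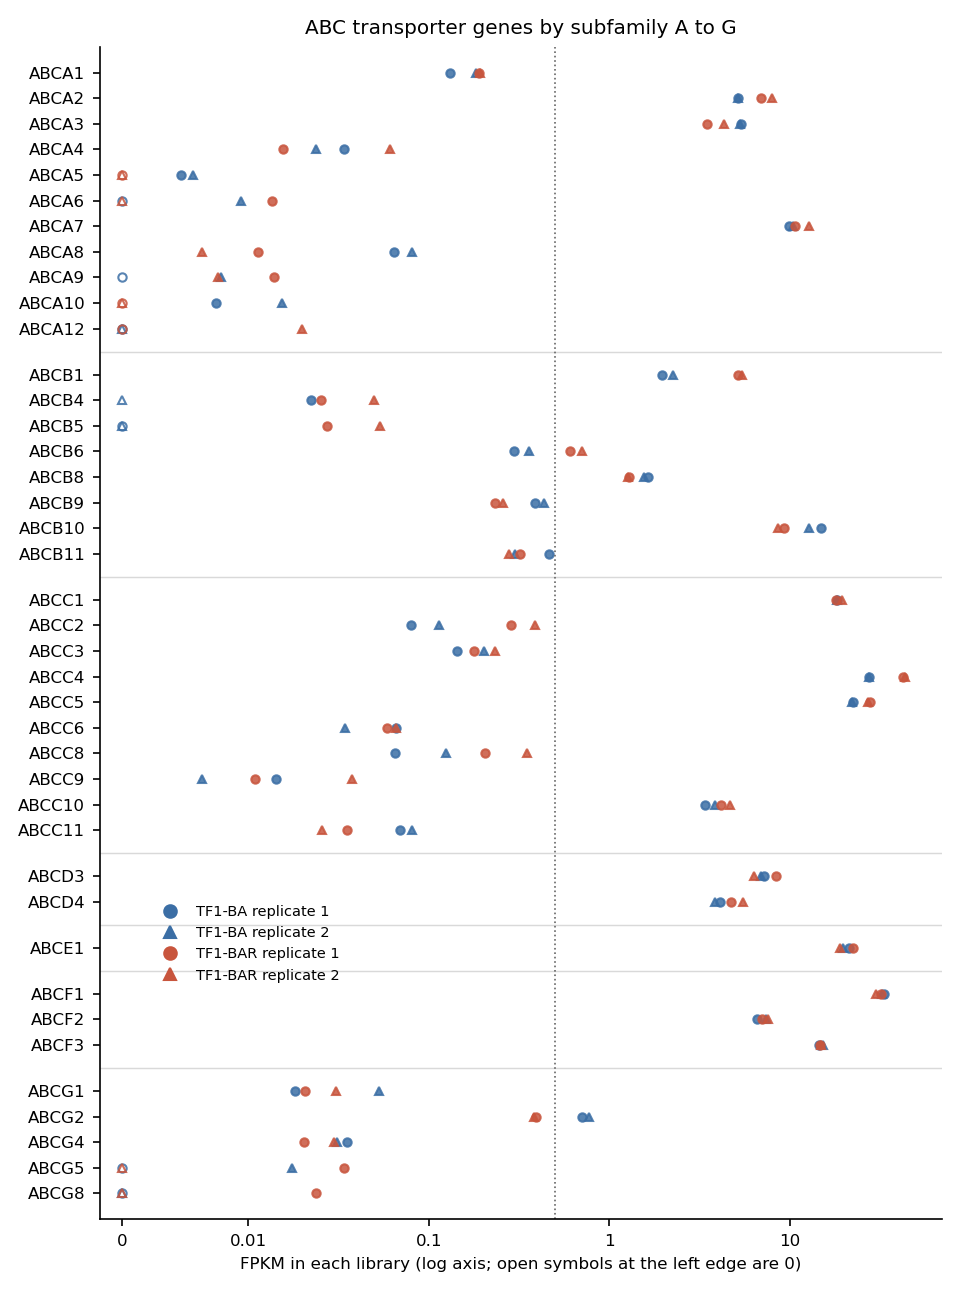
FPKM of 40 of the 42 ABC genes in each library on a log axis, by subfamily, with circles and triangles for the replicates, blue for TF1-BA and red for TF1-BAR. The dotted line marks 0.5 FPKM, above which lay the mean of 17 of the genes drawn, and ABCC4 lay farthest to the right in the TF1-BAR libraries at 42.8 and 43.5 FPKM.

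The summed level of the 42 genes was 228.6 and 226.1 FPKM in the TF1-BA and 251.2 and 250.3 FPKM in the TF1-BAR libraries. The share of subfamily C in this sum was 31.75% and 32.15% in the TF1-BA libraries against 37.31% and 38.26% in those of TF1-BAR. ABCC4 alone took 12.1% and 12.2% of the sum in the TF1-BA cells against 17.0% and 17.4% in the other line. The share of subfamily B was 16.3% and 15.6% against 13.8% and 13.3%, and that of subfamily F was 23.8% and 24.5% against 21.4% and 21.0%. Subfamily G held under 0.4% in each library.

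**Figure D2:**
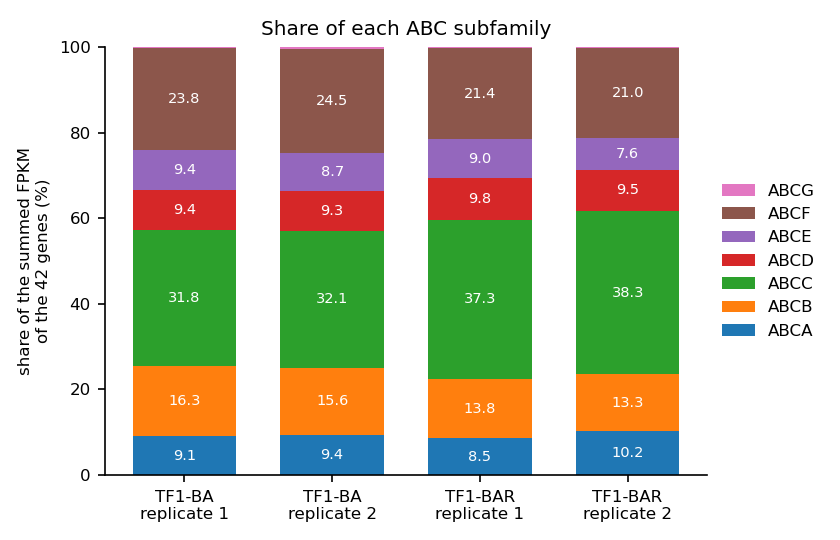
Share of each subfamily in the summed FPKM of the 42 ABC genes (percent), 1 bar per library. The ABCC segment took 31.8% and 32.1% of the TF1-BA bars and 37.3% and 38.3% of the TF1-BAR bars.

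The cell lines were compared with limma on log2(FPKM + 0.5), where 15519 genes reached a mean of 0.5 FPKM, a scale on which the fold change of a scarce gene is understated. 19 members passed this filter and 23 did not. 4 members had higher levels in the TF1-BAR cells at an adjusted p under 0.05, namely ABCB1, ABCC4, ABCA2 and ABCC5, beside 16.3% of all genes tested. ABCB10 was the 1 member with a lower level, beside 10.5% of all genes. ABCB1 also passed an absolute log2 fold change of 1, as did 3.05% of all genes in the higher direction, and 0 members did so in the lower direction, beside 1.69% of all genes. Over the same genes, 6 members were higher and 2 lower at an unadjusted p under 0.05, beside 25.5% and 16.7% of all genes. Limma voom on the fragments recovered from the FPKM called 5 and 2, none of the lower ones past a log2 fold change of 1 in size, beside 22.4% and 15.3% of all genes. The libraries of the 2 lines did not overlap for 13 of the 19 members, against 69.3% of all genes. The median log2 fold change of the tested members was 0.04, with 12 above 0 and 7 below, and that of all genes tested was 0.07, with 57.3% above 0. These counts are near those of all genes, so they are no result about the family.

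The fits with 3 libraries showed how far the calls rest on single libraries. Without TF1-BA replicate 1 or without TF1-BA replicate 2, 0 members passed in either direction, while the same fits called 85 and 25 genes of all 15519 as higher and 59 and 17 as lower. Without TF1-BAR replicate 1, 3 members were higher and 1 was lower, and without TF1-BAR replicate 2, 2 were higher and 0 were lower. Over all genes the first of these fits called 1827 higher and 1349 lower, and the second 547 and 481. With 2 libraries per line an exact permutation test of a single gene cannot give a two-sided p below 0.333, so the calls come from the spread that limma shares across genes.

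**Figure D3:**
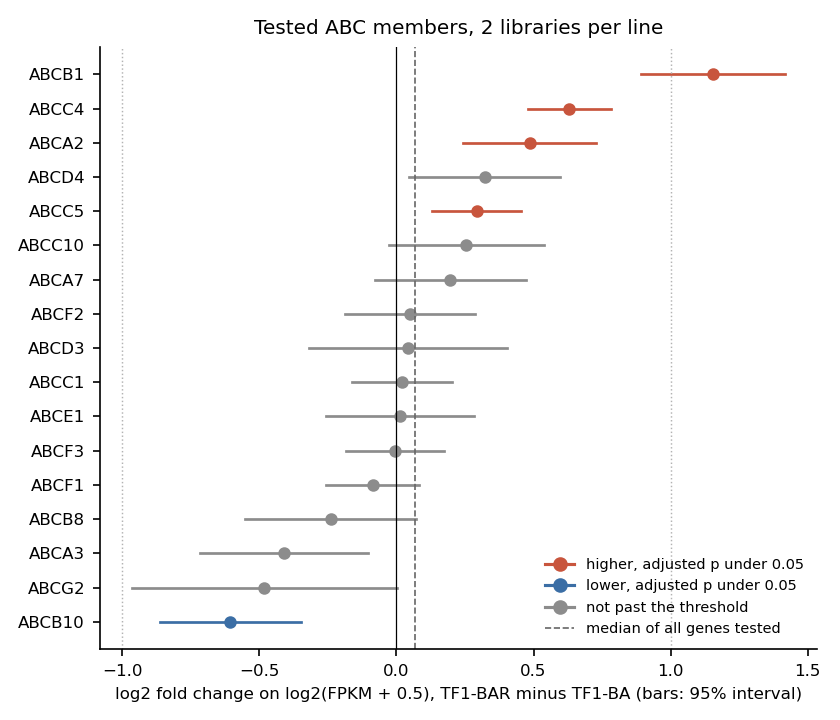
Log2 fold change of 17 of the 19 tested ABC members on log2(FPKM + 0.5), TF1-BAR minus TF1-BA, with 95% intervals from limma. Red members were higher and the blue member lower at an adjusted p under 0.05, dotted lines mark a log2 fold change of 1 in size, and the dashed line is the median of all genes tested at 0.07.

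Among the drug pumps of broad range, ABCB1 had the largest log2 fold change of the tested members. ABCB1 (ENSG00000085563, GRCh38 chromosome 7, positions 87503633 to 87713323, minus strand) stood at 1.97 and 2.25 FPKM in the TF1-BA libraries and at 5.16 and 5.43 FPKM in the TF1-BAR libraries. Every TF1-BAR library was above both TF1-BA libraries, and the ratio of the means was 2.51. These values rest on 206, 202, 472 and 507 fragments, and counting error alone gives a relative error of 7.04% in the smallest. The log2 fold change was 1.15 (SE 0.102, 95% interval 0.89 to 1.42, limma adjusted p = 0.00565). It was 1.08 without TF1-BA replicate 1 (adjusted p = 0.0588) and 1.23 without TF1-BA replicate 2 (adjusted p = 0.0565), neither past the threshold. The second gene in this group, ABCG2, was scarce, at 0.709 and 0.774 FPKM in the TF1-BA and 0.393 and 0.385 FPKM in the TF1-BAR libraries. Its lines did not overlap, but its log2 fold change of −0.48 (SE 0.187, 95% interval −0.96 to 0.0006) had a limma adjusted p of 0.119. It reached the filter of 0.5 FPKM only through the TF1-BA line, so its tests follow in part from the filter and support no call. The ratio of its mean FPKM was 0.524, and the log2 fold change was −0.78 with a pseudocount of 0.1 FPKM and −0.90 by voom on the genes of this filter (adjusted p = 0.0503). Without the trend of the spread over expression, limma gave an adjusted p of 0.0314, and over the other alternatives the adjusted p ran from 0.0503 to 0.278. The smallest fragment numbers that fit these FPKM are 31, 29, 15 and 15, and a transcript length of 4848 rather than 2424 bases would double them to 62, 58, 30 and 30. In each TF1-BA library the FPKM of ABCB1 was 2.77 and 2.91 times that of ABCG2, and in the TF1-BAR libraries it was 13.1 and 14.1 times, so ABCB1 was the more abundant of the pair per length in every library.

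In subfamily C, ABCC4 and ABCC5 had higher levels in the TF1-BAR cells. ABCC4 (MRP4, an exporter of cyclic nucleotides, nucleotide drugs and prostaglandins, chromosome 13, positions 95019829 to 95301446, minus strand) stood at 27.7 and 27.7 FPKM in the TF1-BA libraries and at 42.8 and 43.5 FPKM in the TF1-BAR libraries. Replicates lay within 1 FPKM of each other while the lines differed by far more, with a log2 fold change of 0.63 (SE 0.0585, limma adjusted p = 0.00597). Without TF1-BA replicate 1 the adjusted p was 0.0698 and without TF1-BA replicate 2 it was 0.0711, at log2 fold changes of 0.63 and 0.63. ABCC5 (MRP5, which exports similar nucleotides, chromosome 3, positions 183919934 to 184018015, minus strand) stood at 22.6 and 22.2 FPKM against 28.0 and 27.1 FPKM, with a log2 fold change of 0.29 (SE 0.0628, limma adjusted p = 0.0301). This call was lost without any 1 of the 4 libraries, at log2 fold changes of 0.27 to 0.32 and an adjusted p of 0.0592 to 0.195.

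ABCC1 (MRP1), the exporter of glutathione conjugates, was measured at 18.4 and 18.4 FPKM in the TF1-BA and at 18.0 and 19.4 FPKM in the TF1-BAR libraries. The lines overlapped, and the log2 fold change of 0.02 had a 95% interval of −0.16 to 0.20 (limma adjusted p = 0.851). Per library, ABCC4 stood at 1.51 and 1.50 times the FPKM of ABCC1 in the TF1-BA cells and at 2.38 and 2.24 times in the TF1-BAR cells. The ratio of ABCB1 to ABCC1 was 0.107 and 0.122 in the TF1-BA cells against 0.286 and 0.280 in the TF1-BAR cells, so that ABCC1 remained the more abundant transcript per length in all 4 libraries. ABCC10 (MRP7) stood at 3.39 and 3.88 FPKM against 4.18 and 4.69, which do not overlap, with a log2 fold change of 0.26 (SE 0.109, limma adjusted p = 0.146).

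The remaining ABCC genes were scarce and lay under the filter. ABCC2 (MRP2, which exports conjugates into bile) had 9 and 11 fragments in the TF1-BA and 28 and 39 in the TF1-BAR libraries, or 0.080 and 0.114 against 0.285 and 0.389 FPKM. ABCC3 (MRP3) had 25 and 30 fragments against 27 and 36, and its lines overlapped. ABCC8, the sulphonylurea receptor that joins the potassium channel KCNJ11, had at least 8 and 13 fragments against 22 and 38. KCNJ11, the next gene on the same strand of chromosome 11, shares no exon base with it and stood at 1.19 and 1.21 FPKM against 2.83 and 3.03, a log2 fold change of 1.01 (SE 0.109, limma adjusted p = 0.0075). The channel KCNJ8 had a log2 fold change of 0.90 (SE 0.171, limma adjusted p = 0.0232), while ABCC9, the receptor that joins it, had at least 3 and 1 fragments against 2 and 7. ABCC6 and ABCC11 had 9 fragments or fewer in every library.

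In subfamily A, whose members move lipids, ABCA2 had a higher level in the TF1-BAR cells. ABCA2 (a transporter of endosomes and lysosomes linked to sterol handling, chromosome 9, positions 137007227 to 137028922, minus strand) stood at 5.19 and 5.17 FPKM in the TF1-BA and at 6.96 and 7.97 FPKM in the TF1-BAR libraries. Both TF1-BAR libraries were above both TF1-BA libraries, with a log2 fold change of 0.49 (SE 0.0942, limma adjusted p = 0.0244). The call was lost without TF1-BA replicate 1, TF1-BA replicate 2 or TF1-BAR replicate 2, at log2 fold changes of 0.49, 0.48 and 0.39 and adjusted p of 0.145, 0.146 and 0.0765. ABCA3, which loads phospholipids into lamellar bodies and has been linked to drug tolerance in leukaemia cells, stood at 5.39 and 5.32 FPKM against 3.50 and 4.35. Its lines did not overlap either, but its log2 fold change of −0.41 (SE 0.119) had a limma adjusted p of 0.0612. ABCA7, the most abundant member of the subfamily and a lipid exporter of blood cells, stood at 9.94 and 10.5 FPKM against 10.8 and 12.9, with a log2 fold change of 0.20 (SE 0.106, limma adjusted p = 0.225). Of the other 8 members, ABCA1 had 27 to 35 fragments in every library, ABCA8 had 13 and 14 against 2 and 1, and ABCA4, ABCA5, ABCA6, ABCA9, ABCA10 and ABCA12 had 8 or fewer.

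ABCB10 was the member with a lower level in the TF1-BAR cells, and it belongs to the mitochondrial transporters of subfamily B. ABCB10 (an inner membrane protein needed for haem synthesis in red cell precursors, chromosome 1, positions 229516582 to 229558695, minus strand) stood at 14.9 and 12.9 FPKM in the TF1-BA and at 9.30 and 8.58 FPKM in the TF1-BAR libraries. The lines did not overlap, and the log2 fold change was −0.61 (SE 0.0997, 95% interval −0.86 to −0.35, limma adjusted p = 0.0168). The call was lost without TF1-BA replicate 1, TF1-BA replicate 2 or TF1-BAR replicate 2, at log2 fold changes of −0.50, −0.71 and −0.55 and adjusted p of 0.112, 0.0777 and 0.079. 3 processed pseudogenes of ABCB10 on chromosome 15 were read at 0.627 to 1.63 FPKM. None passed the threshold, at log2 fold changes of 0.14 for ABCB10P1, −0.002 for ABCB10P3 and 0.45 for ABCB10P4. Reads could be split among near-identical copies, which was not tested. ABCB8, another mitochondrial member, stood at 1.64 and 1.56 FPKM against 1.28 and 1.27, with a log2 fold change of −0.24 (SE 0.122, limma adjusted p = 0.20). ABCB6, a porphyrin transporter, lay under the filter with 28 and 29 fragments against 50 and 59. ABCB11, the bile salt pump of the liver, had at least 43 and 24 fragments against 26 and 23, and its lines overlapped.

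Partner genes of these mitochondrial transporters were read from a list. Of 13 genes of iron-sulphur assembly and haem synthesis, all tested, 2 were higher, 2 were lower and 9 did not pass, beside 16.3% and 10.5% of all genes, with a median log2 fold change of 0.04 beside 0.07 over all genes. GLRX5, a carrier of iron-sulphur clusters, stood at 33.7 and 32.8 FPKM against 25.5 and 24.7, a log2 fold change of −0.40 (SE 0.0619, limma adjusted p = 0.0145). FECH, which inserts the iron into haem, stood at 18.2 and 19.0 FPKM against 13.7 and 11.7, a log2 fold change of −0.54 (SE 0.0966, limma adjusted p = 0.0204). SLC25A37 (mitoferrin), the iron importer of the mitochondrion, had a log2 fold change of 0.41 (SE 0.0914, limma adjusted p = 0.0335), and GFER one of 0.46 (SE 0.12, limma adjusted p = 0.0465).

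The 3 members of subfamily D all passed the filter and none passed the threshold by limma, while 2 were higher at an unadjusted p under 0.05 and voom called ABCD4 as higher. The shares of all genes higher by limma, at an unadjusted p and by voom were 16.3%, 25.5% and 22.4%. ABCD3, which imports branched-chain acids and bile acid precursors into peroxisomes, stood at 7.25 and 6.94 FPKM against 8.40 and 6.37, and its lines overlapped. ABCD4, the lysosomal transporter of cobalamin, stood at 4.13 and 3.86 FPKM against 4.72 and 5.54, with a log2 fold change of 0.32 (SE 0.107, limma adjusted p = 0.0852). It shares 624 exon bases with a gene on the same strand, AC005519.2, at 0.973 to 2.09 FPKM, so its reads are uncertain. Among 10 peroxisomal partners, all tested, 0 were higher and 2 were lower by limma, beside 16.3% and 10.5% of all genes, with a median log2 fold change of 0.0003. 1 was higher and 3 were lower at an unadjusted p under 0.05, beside 25.5% and 16.7% of all genes, and voom called 1 higher, the thiolase ACAA1, and 3 lower, beside 22.4% and 15.3%. The 2 that limma called lower were the acyl-CoA binding protein ACBD5, with a log2 fold change of −0.75 (SE 0.0827, limma adjusted p = 0.00777), and catalase (CAT), with −0.49 (SE 0.0673, limma adjusted p = 0.0115). ACBD5 lies on chromosome 10, where the median log2 fold change of 593 tested genes was −0.35.

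None of the ribosome-bound members ABCE1, ABCF1, ABCF2 and ABCF3 passed by limma, by voom or at an unadjusted p under 0.05. ABCE1, which splits ribosomes after termination, stood at 21.4 and 19.7 FPKM against 22.6 and 19.1, with a 95% interval of −0.26 to 0.28 for its log2 fold change. ABCF1, which takes part in translation initiation, stood at 33.2 and 32.6 FPKM against 32.0 and 30.0, a log2 fold change of −0.09 with a 95% interval of −0.26 to 0.08. The intervals of ABCF2 and ABCF3, which stood at 6.64 to 7.55 and at 14.5 to 15.3 FPKM over the 4 libraries, ran from −0.19 to 0.29 and from −0.18 to 0.17. Each of these 4 intervals lies within a log2 fold change of 0.3 in size. Of 12 genes of ribosome rescue, recycling and initiation control, all tested, 0 passed in either direction by limma, while 1 was higher at an unadjusted p under 0.05 and voom called 1 higher (DENR) and 1 lower (LTN1). Over all genes limma called 16.3% higher and 10.5% lower, 25.5% and 16.7% passed unadjusted, and voom called 22.4% and 15.3%. Their median log2 fold change was −0.03. The smallest adjusted p were 0.0599 for DENR, 0.18 for LTN1 and 0.199 for EIF2D.

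The sterol exporters ABCA1, ABCG1, ABCG4, ABCG5 and ABCG8 were scarce, with 27 to 35 fragments of ABCA1 in every library. ABCG1 had 2 to 5 fragments in every library, ABCG4 2 to 4, and ABCG5 and ABCG8 at most 4. Among the 11 targets of the LXR receptor and sterol partners, where ABCA1 and ABCG1 are counted too, 9 were tested, 3 were higher and 0 were lower by limma, beside 16.3% and 10.5% of all genes, with a median log2 fold change of 0.23. At an unadjusted p under 0.05, 5 were higher and 1 was lower, beside 25.5% and 16.7% of all genes, and voom called 4 higher, the lipoprotein receptor SCARB1 among them, and 1 lower, the apolipoprotein APOE, beside 22.4% and 15.3%. Among the higher ones were the desaturase SCD, with a log2 fold change of 0.77 (SE 0.0685, limma adjusted p = 0.00565), and the phosphodiesterase SMPDL3A, with 0.87 (SE 0.121, limma adjusted p = 0.0116). Those that did not pass by limma included SREBF1, LPCAT3 and MYLIP, with log2 fold changes of −0.02, −0.06 and 0.23 (limma adjusted p = 0.842, 0.666 and 0.0941).

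Of 16 transcription regulators known to act on ABC genes, 14 were listed, 12 were tested, 5 were higher and 1 was lower, beside 16.3% and 10.5% of all genes, with a median log2 fold change of 0.07. At an unadjusted p under 0.05, 5 were higher and 3 lower, beside 25.5% and 16.7% of all genes, and voom called 5 higher and 2 lower, beside 22.4% and 15.3%. SREBF2, the activator of cholesterol synthesis and uptake genes, stood at 19.6 and 20.5 FPKM against 37.3 and 40.6, a log2 fold change of 0.94 (SE 0.0739, limma adjusted p = 0.00462). The retinoid X receptor RXRA stood at 3.88 and 4.10 FPKM against 6.51 and 7.70, a log2 fold change of 0.76 (SE 0.107, limma adjusted p = 0.0121), and RXRB, NR1H3 (the receptor LXR alpha) and KEAP1 also rose. NFE2L2, the oxidant-responsive factor that KEAP1 restrains, fell from 27.9 and 25.8 FPKM to 16.5 and 17.1, a log2 fold change of −0.66 (SE 0.0724, limma adjusted p = 0.00776). The second that voom called lower was the xenobiotic receptor AHR, at 4.08 and 2.71 FPKM against 2.18 and 1.63, where limma gave a log2 fold change of −0.68 (SE 0.216, adjusted p = 0.0755). The xenobiotic receptor NR1I3 lay under the filter, with 3 and 3 fragments against 20 and 8, or 0.0503 and 0.0587 against 0.384 and 0.151 FPKM, and its lines did not overlap.

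The carriers that could bring imatinib into the cell were scarce. Of 7, 5 were listed and 2 tested, and 0 passed in either direction by limma, beside 16.3% higher and 10.5% lower of all genes. SLC22A4 stood at 0.887 and 0.866 FPKM against 0.425 and 0.509, a log2 fold change of −0.51 (SE 0.177, limma adjusted p = 0.0933), and SLC22A5 at 0.923 and 0.90 against 0.819 and 0.71, a log2 fold change of −0.16 (SE 0.16, limma adjusted p = 0.488). At an unadjusted p under 0.05, 1 of the 2 was lower, beside 16.7% of all genes, and voom called SLC22A4 as lower, beside 15.3%, but this gene reached the filter only through the TF1-BA line, so its call follows in part from the filter. ABC proteins with other symbols were looked up as well. TAP1 and TAP2, which pump peptides to HLA class I molecules, were both lower, beside 10.5% of all genes. TAP1 stood at 4.18 and 4.17 FPKM against 2.51 and 2.53 (log2 fold change −0.63, SE 0.0869, limma adjusted p = 0.0115), and TAP2 at 6.26 and 5.92 against 4.14 and 4.18 (log2 fold change −0.50, SE 0.0812, limma adjusted p = 0.0163). CFTR, the chloride channel of this family, lay under the filter.

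The scarce members were read through their fragment numbers in a fit chosen after the data were seen, limma voom on recovered fragments over 20429 genes with at least 10 fragments summed over the 4 libraries. 35 members entered it, 9 were higher and 4 were lower at an adjusted p under 0.05, beside 19.1% and 11.9% of all genes in that fit. 4 of the higher and 1 of the lower also passed a log2 fold change of 1 in size, beside 6.28% and 2.59%. ABCB5, with 0 and 0 fragments against 4 and 8, and ABCA8, with 13 and 14 against 2 and 1, reached the minimum only through the line where they were high, so their calls follow in part from the filter. Without the members that had at most 3 fragments in a line, 8 were higher and 3 lower, and 3 of the higher and none of the lower passed a log2 fold change of 1 in size by voom. 16 of the 35 lay under the FPKM filter, and of these ABCB5, ABCB6, ABCC2 and ABCC8 were higher and ABCA8 and ABCB9 lower. ABCC2 had a log2 fold change of 1.77 (voom adjusted p = 0.00466), ABCB6 one of 0.998 (voom adjusted p = 0.0111) and ABCC8 one of 1.56 (voom adjusted p = 0.0176). ABCB9, a lysosomal peptide transporter, had 93 and 89 fragments against 49 and 55 and a log2 fold change of −0.73 (voom adjusted p = 0.0164), but 12.0% and 12.5% of its exon bases are shared with ARL6IP4 and OGFOD2 on the other strand. The tested members ABCD4 and ABCA3 were also called by voom, at adjusted p of 0.0236 and 0.00899, and ABCG2 stood at 0.0542. The voom p-values measure only the spread between these libraries, and reads without molecular identifiers are not independent molecules.

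**Figure D4:**
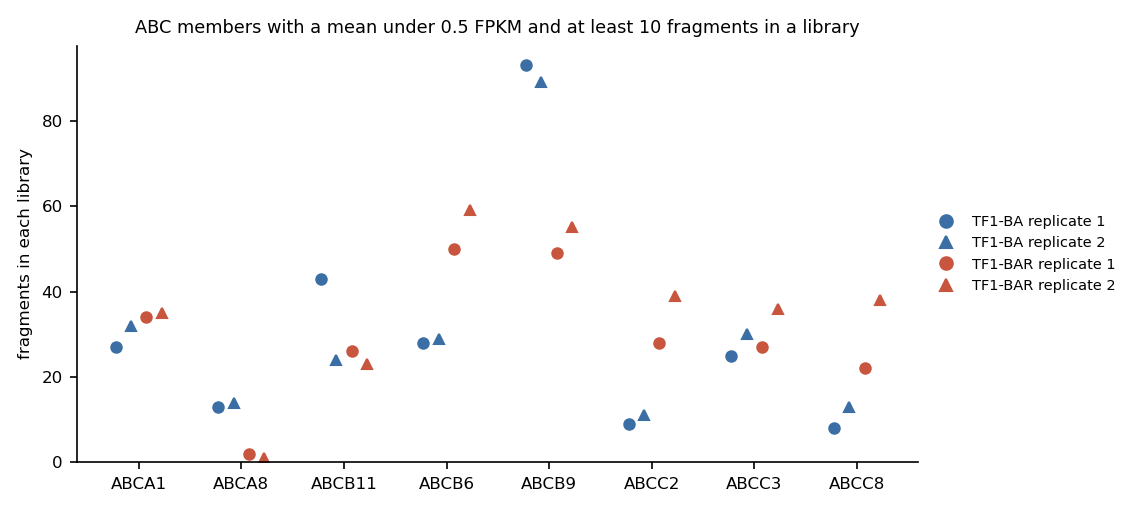
Fragments in each library for the 8 ABC members with a mean under 0.5 FPKM and at least 10 fragments in a library, blue for TF1-BA and red for TF1-BAR. ABCA8 and ABCB9 were lower in both TF1-BAR libraries, and ABCB6, ABCC2 and ABCC8 were higher, with the largest number at 93 for ABCB9.

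The genes around the called members were looked at for shifts shared along the chromosome, counting genes whose span comes within 1 Mb of the span of the member. Over all genes tested, limma called 16.3% higher and 10.5% lower, 3.05% and 1.69% with a log2 fold change of 1 or more in size. Around ABCB1, 10 other genes were tested, 1 was higher and 0 were lower by limma and at an unadjusted p under 0.05, and voom called 2 higher and 0 lower. Their median log2 fold change was 0.19 against 0.08 over 741 genes of chromosome 7. The higher one was TMEM243 (0.80, SE 0.124, limma adjusted p = 0.0143), at −493 kb on the chromosome, while DBF4 and SLC25A40, both at 163 kb, had log2 fold changes of −0.12 and −0.30 that did not pass. ABCB4, the phosphatidylcholine transporter next to ABCB1, had 3 and 0 fragments against 3 and 6. RUNDC3B overlaps ABCB1 on the other strand with 0 shared exon bases and stood at 0.459 and 0.48 FPKM against 0.323 and 0.158. Around ABCA2, 60 genes were tested, 15 were higher and 3 lower, 6 of these past a log2 fold change of 1 in size, and the median was 0.15 against 0.08 over chromosome 9. NPDC1, at 17 kb from the start of ABCA2, had a log2 fold change of 1.38 (SE 0.135, limma adjusted p = 0.00652). The neighbours with the largest differences were HSPC324 at −369 kb (−2.20), C8G at −84 kb (−2.19) and MIR126 at −358 kb (2.10), so they went both ways. Of these, HSPC324 is listed as an antisense gene and MIR126 as a miRNA gene, and only C8G as protein-coding. Around ABCC5, 33 genes were tested, 6 were higher and 2 lower, and the median was 0.09 against 0.05 over chromosome 3. Around ABCC4, 11 genes were tested, 2 were higher and 3 lower, and the median was 0.27 against 0.0039 over chromosome 13. Around ABCB10, 12 genes were tested, 1 was higher (URB2, 0.62) and 1 lower (GALNT2, −0.31), and the median was 0.09 against 0.05 over chromosome 1. ABCC2, with more fragments in the TF1-BAR libraries, lies on chromosome 10, where 9 of its 19 tested neighbours were lower and 3 were higher, with a median of −0.45 against −0.35 over that chromosome. The 13 tested neighbours of ABCG2 gave 0 calls by limma, and 1 was higher and 3 lower both at an unadjusted p under 0.05 and by voom, beside 25.5% and 16.7%, and 22.4% and 15.3%, of all genes.

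**Figure D5:**
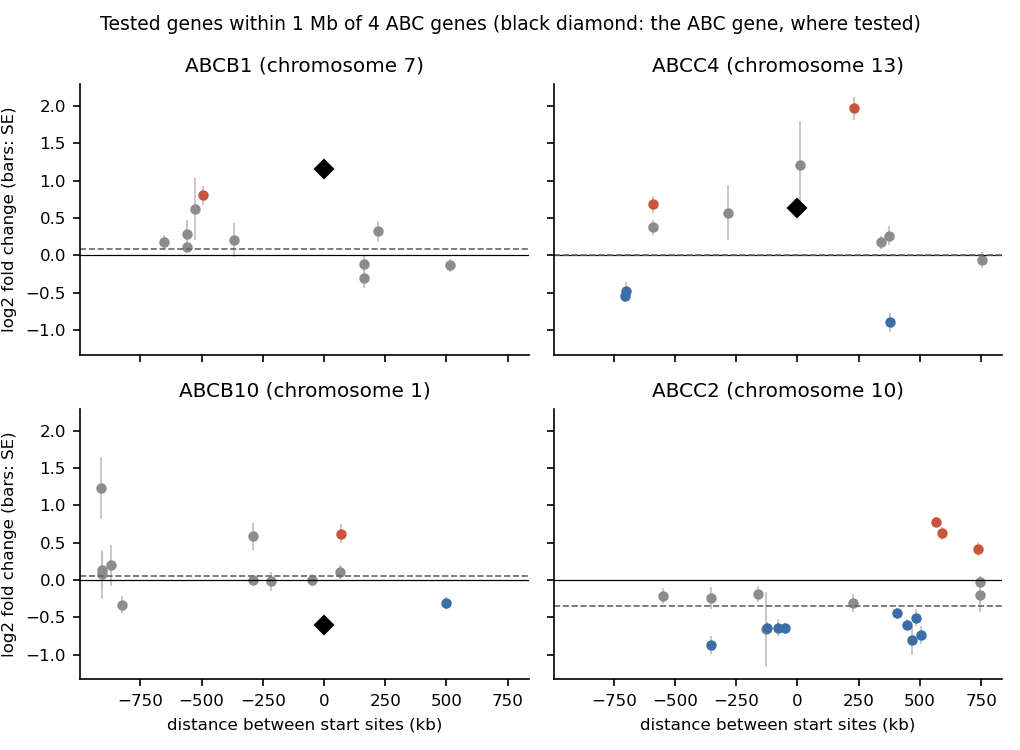
Log2 fold change (TF1-BAR minus TF1-BA, with SE) of tested genes whose span comes within 1 Mb of that of 4 ABC genes, against the distance between start sites in kb. Red and blue genes passed the threshold as higher or lower, black diamonds are ABCB1 at 1.15, ABCC4 at 0.63 and ABCB10 at −0.61, dashed lines are chromosome medians, and ABCC2 itself was not tested.

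Promoter sequence is shown for ABCB1, with the largest rise among the members past the threshold on log2(FPKM + 0.5), for ABCB10, the 1 that fell there, and for the most abundant one in the TF1-BAR cells, ABCC4. The set of RefSeq start sites used here covered 31 of the 42 members, 46 windows in all. The 250 bases before each start were searched on both strands for the letters GGGCGG of the GC box, for the CCAAT box by its own letters, for the letters CACGTG of an E-box and for the letters TATAAA of the TATA box. No matches overlapped in the windows shown. Capitals mark the matches, and each sequence reads 5′ to 3′ along the gene on GRCh38.p14, all from the minus strand. ABCB1 has 2 listed start sites, and its gene-level FPKM does not tell them apart.
ABCB1, inner start, chr7:87600885-87601134: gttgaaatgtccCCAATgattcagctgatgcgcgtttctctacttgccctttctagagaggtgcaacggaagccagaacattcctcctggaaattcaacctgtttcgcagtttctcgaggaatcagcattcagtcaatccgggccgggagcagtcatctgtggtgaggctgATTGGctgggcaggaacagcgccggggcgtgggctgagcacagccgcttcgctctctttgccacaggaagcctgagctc
ABCB1, outer start, chr7:87713296-87713545: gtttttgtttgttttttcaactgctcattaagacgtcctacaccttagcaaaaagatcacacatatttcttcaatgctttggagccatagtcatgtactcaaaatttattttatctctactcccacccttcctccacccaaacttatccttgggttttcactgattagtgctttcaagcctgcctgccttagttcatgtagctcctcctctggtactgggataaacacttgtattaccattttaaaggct
ABCB10, chr1:229558708-229558957: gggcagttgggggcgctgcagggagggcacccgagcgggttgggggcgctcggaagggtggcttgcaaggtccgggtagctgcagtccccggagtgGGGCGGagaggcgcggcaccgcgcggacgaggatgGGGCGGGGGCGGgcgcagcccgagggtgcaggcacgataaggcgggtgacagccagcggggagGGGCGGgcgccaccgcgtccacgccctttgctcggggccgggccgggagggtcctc
ABCC4, chr13:95301452-95301701: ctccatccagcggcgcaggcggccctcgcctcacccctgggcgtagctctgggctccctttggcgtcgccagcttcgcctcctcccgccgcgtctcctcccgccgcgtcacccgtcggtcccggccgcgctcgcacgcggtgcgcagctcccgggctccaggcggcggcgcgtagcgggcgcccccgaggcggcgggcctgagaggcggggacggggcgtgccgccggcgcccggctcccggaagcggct

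The inner window of ABCB1 held 2 CCAAT boxes, 1 of them on the other strand, at a GC content of 55.6%, and the outer window held none of the 4 motifs at 39.2%. The ABCB10 window held 4 GC boxes at 77.2% GC, and the ABCC4 window none of the 4 motifs at 80.4%. Over all 34943 windows of this length, 42.5% held a GC box, 32.0% a CCAAT box, 6.32% an E-box and 10.8% a TATA box, and the median GC content was 58.0%. Of the 46 windows of ABC members, 23 held a GC box, 8 a CCAAT box, 9 an E-box and 6 a TATA box, with GC contents from 23.6% to 85.6%. Several windows belong to 1 gene and overlap, so they are not independent. Among the other called members, the 2 windows of ABCA2 held 6 and 0 GC boxes and that of ABCC5 held 1 GC box and 1 TATA box.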

How the data were processed

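RNA was sequenced from 2 libraries of each line. Per the labels and the methods of the study, reads were mapped to GRCh38 with TopHat2 2.0.13 and passed through Cufflinks and Cuffdiff 2.2.0, and the authors deposited FPKM per library. The annotation release is not given in the sources used here, and the kit is not stated to mark the strand. Samples were grouped by their labels. Since FPKM are not counts, the DESeq2 test named in the study's methods was replaced by limma 3.58.1 in R 4.3.3 (lmFit, eBayes with a trend) on log2(FPKM + 0.5), over 15519 genes with a mean of at least 0.5 FPKM, with Benjamini-Hochberg adjustment. The thresholds were an adjusted p under 0.05 and, where named, a log2 fold change of 1 or more in size.

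Fragments were recovered by a search for sizes of the libraries and lengths of the genes that turn all 30853 genes above 0 into whole numbers within 0.01 fragment, 14816 at their GENCODE 44 length and 16037 at a fitted one. 0 of 300 well-covered genes that were whole at their GENCODE 44 length stayed whole there with wrong sizes. That check did not cover fitted lengths, and those of ABCB1, ABCC4 and ABCB10 are fitted. Where a multiple of the fitted length also serves, the smallest number is given (for example ABCB11, ABCC8, ABCC9 and ABCG2).

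In simulated data for this comparison with 15553 genes tested, 56.7% of 178 genes changed 2-fold were called, with 10 unchanged ones. At 3-fold, 87.6% of 177 were called, with 18 unchanged ones among 15530 genes. The simulation changed far fewer genes than the 2537 higher and 1630 lower ones called in the real data. It also gave every gene the same assumed spread, so its shares need not hold for the real data. Members and partner lists were chosen with earlier results of these data known. Named with values are members past the threshold, drug carriers, the 3 most abundant of each subfamily, and partners past both thresholds or up to 3 per list by adjusted p. Other members, partners and neighbours were named after their values were seen. Some members and partners are counted but not reported here by name. 13 alternatives were planned and 1 was added.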

Additional observations from a re-analysis of the deposited data

How the results depend on the processing

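The number of higher members was 4 with a pseudocount of 1 or 0.1 FPKM, a mean of at least 1 FPKM, TPM and quantile normalization, 3 without the trend and 5 with limma voom on recovered fragments. Without a filter on low values, 2 members were higher and 0 lower by limma, among 42 tested, and 748 and 484 of all 32673 genes. The number of lower members was 2 with a mean FPKM of at least 1, with quantile normalization, without the trend and with limma voom on recovered fragments, where ABCA3 or, without the trend, ABCG2 joined ABCB10. Over all genes, these settings other than the missing filter called 1928 to 3475 higher and 1160 to 2373 lower. Limma voom on genes with at least 10 recovered fragments, chosen after seeing the data, gave 9 higher and 4 lower members, 4 and 1 of them past both thresholds, and 8 and 3 without the members that had at most 3 fragments in a line. With the replicate number as a replicate block, 4 members were higher and 1 lower, and 2347 and 1622 of all genes passed instead of 2537 and 1630. The correlation of same-numbered deviations was 0.0646 and the labels tie the numbers to no shared culture, so they are no pairs by design.

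Leaving out each replicate in turn gave 0 to 3 higher members, 0 to 1 lower, and 0 to 1 past both thresholds as higher. A line with 1 library is then assumed to vary like the other. ABCB1 and ABCC4 passed in all 10 other alternatives, at log2 fold changes of 1.02 to 1.34 and 0.62 to 0.70, ABCA2 and ABCB10 in 9 and ABCC5 in 8. The signs that turned were those of members near 0, none past the threshold. TPM gave 0.0624 for ABCF3. Quantile normalization gave −0.0058 for ABCC1, −0.0104 for ABCD3, −0.0039 for ABCE1 and −0.0011 for ABCF2. With 1 library left out, the log2 fold change ran from −0.0323 to 0.0728 for ABCC1, −0.14 to 0.23 for ABCD3, −0.11 to 0.13 for ABCE1, −0.0271 to 0.13 for ABCF2 and −0.0416 to 0.0312 for ABCF3. The cause of these changes was not tested. Counting error limits the scarce members, with a relative error of 25.8% in the smallest library of ABCG2 against 1.73% for ABCC4. The value of ABCG2 takes the smallest fragment number that fits, and a larger one would lower it.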
